A study of Mus musculus with 10 samples.

Results

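A group of 10 genes for receptors and signalling chains of natural killer (NK) type was followed in messenger RNA from small-intestinal epithelial cell preparations of mice. They were matched by gene symbol in the deposited table, which held 24839 rows, and all 10 had 1 row each. The receptors were Klrd1, Klrk1, Klre1, Klrc1 and Klrc2, which are of the C-type lectin family, and Cd160 and Cd244a, which are of the immunoglobulin type. The adaptors were Fcer1g, Tyrobp and Hcst. The series compared 5 libraries titled NCD with 5 titled HCD, which the series title gives as a high cellulose diet. The labels do not spell out NCD. In the described design each diet was fed for 60 days. Food allergy was induced by injections of 50 µg of the egg white protein ovalbumin (OVA) with 1 mg of an aluminium adjuvant on days 0 and 14, followed by 5 oral doses of 50 mg of OVA, and groups without OVA received saline. By the treatment label all NCD libraries were untreated and all HCD libraries had received OVA, so diet and OVA cannot be told apart here. The sources used here give no strain, sex, age or genotype and do not say whether each library came from 1 mouse.

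NK-type receptors are carried by NK cells and by many of the T cells that live between epithelial cells of the small intestine. Many of the activating ones have no signalling motif of their own and pair in the membrane with a small adaptor. Fcer1g (the common Fc receptor gamma chain) and Tyrobp (DAP12) carry an immunoreceptor tyrosine-based activation motif, or ITAM, that recruits the kinases Syk and Zap70. Hcst (DAP10) carries a different motif that recruits phosphoinositide 3-kinase and Grb2. Klrd1 (CD94) forms heterodimers with the products of Klrc1 (NKG2A, inhibitory) and Klrc2 (NKG2C, activating), and Klrk1 encodes NKG2D, which signals through Hcst and, in mice, also through Tyrobp. Fcer1g and Tyrobp are also made by macrophages, neutrophils and mast cells.

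The 5 lectin receptor genes lie within 101 kb of chromosome 6 (chr6:129577905-129678973, GRCm38), in the cluster known as the NK gene complex. Hcst and Tyrobp are neighbours on chromosome 7 in opposite orientation. Tyrobp spans chr7:30413760-30417585 on the plus strand, Hcst spans chr7:30417712-30419854 on the minus strand, and 126 bases separate their ends. Upstream windows of 250 bases before an annotated start were found for 8 of the 10 genes in RefSeq's GRCm38.p6 annotation. Klrd1 and Tyrobp were not matched. The 5 windows of Cd160, Hcst, Fcer1g and Cd244a are shown because these are the matched genes that were higher in HCD in the main test, with capitals marking matches on either strand to the RUNX motif TGTGGT, the ETS motif AGGAAG and the T-box motif GGTGTGA. Cd160 has a pair of annotated starts, and the first window below is at chr3:96814522-96814771, the second at chr3:96829352-96829601, both on the minus strand. The Hcst window is at chr7:30419855-30420104 and the Fcer1g window at chr1:171234350-171234599, both on the minus strand, and the Cd244a window at chr1:171558943-171559192 on the plus strand.
Cd160, downstream start: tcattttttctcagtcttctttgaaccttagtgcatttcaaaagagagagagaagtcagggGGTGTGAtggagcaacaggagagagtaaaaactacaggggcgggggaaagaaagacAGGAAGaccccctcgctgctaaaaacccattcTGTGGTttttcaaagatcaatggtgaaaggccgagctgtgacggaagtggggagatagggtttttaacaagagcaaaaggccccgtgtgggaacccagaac
Cd160, upstream start: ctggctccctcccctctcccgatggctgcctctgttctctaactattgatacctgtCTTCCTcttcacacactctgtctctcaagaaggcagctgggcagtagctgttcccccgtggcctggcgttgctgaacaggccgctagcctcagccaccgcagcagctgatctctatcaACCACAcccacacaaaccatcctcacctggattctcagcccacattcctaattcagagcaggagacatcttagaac
Hcst: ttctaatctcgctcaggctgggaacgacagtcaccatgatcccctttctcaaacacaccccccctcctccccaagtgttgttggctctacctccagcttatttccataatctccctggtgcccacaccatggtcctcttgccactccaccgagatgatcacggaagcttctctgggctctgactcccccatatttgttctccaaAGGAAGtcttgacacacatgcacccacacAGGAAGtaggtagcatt
Fcer1g: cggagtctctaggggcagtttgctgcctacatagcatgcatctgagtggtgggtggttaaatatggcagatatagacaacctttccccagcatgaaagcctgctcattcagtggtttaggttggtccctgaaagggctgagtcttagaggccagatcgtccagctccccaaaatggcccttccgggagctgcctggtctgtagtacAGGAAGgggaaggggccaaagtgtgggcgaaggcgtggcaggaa
Cd244a: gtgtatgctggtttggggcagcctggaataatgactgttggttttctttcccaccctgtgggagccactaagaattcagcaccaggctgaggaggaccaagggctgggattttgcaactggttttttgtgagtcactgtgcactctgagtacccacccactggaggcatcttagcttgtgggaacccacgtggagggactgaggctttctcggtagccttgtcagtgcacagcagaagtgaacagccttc

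The downstream Cd160 window held 1 match to each of the 3 motifs, and the upstream one 1 RUNX and 1 ETS match. The Hcst window held 2 ETS matches and the Fcer1g window 1. Among 32851 windows of the same length in the annotation, 14.0% held the RUNX motif, 29.5% the ETS motif and 3.33% the T-box motif. The window of Cd244a held none of the 3. The data do not say which Cd160 start was used.

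Values are FPKM, fragments scaled by the submitters to transcript length and library size, and library depth is unknown. Testing used limma on log2(FPKM + 1) and took in the 10321 genes whose mean over all libraries reached 1 FPKM. Of these, 26.3% differed, 7.13% being higher and 19.2% lower in HCD at a Benjamini-Hochberg adjusted p under 0.05. Of the 10 genes 6 reached the minimum for testing: Klrd1, Cd160, Cd244a, Fcer1g, Tyrobp and Hcst. All 6 rose, with a median log2 difference of 1.64 against -0.19 over all tested genes. The other 4, Klrk1, Klre1, Klrc1 and Klrc2, stayed under the minimum and were not tested in that fit. The 10 genes and the lists used below were chosen with earlier results of these data known. Their counts and medians are therefore descriptions, not independent tests against all genes. Genes of the mitochondrial genome took 3.23% to 5.76% of summed FPKM in NCD and 14.8% to 29.5% in HCD, and haemoglobin genes rose as well. When mitochondrial genes were dropped before scaling, the median over all genes moved to -0.05, 8.95% of genes were higher, and the 6 genes rose by 0.92 to 2.25. Bulk values cannot tell more cells of a type from more RNA per cell.

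**Figure D1:**
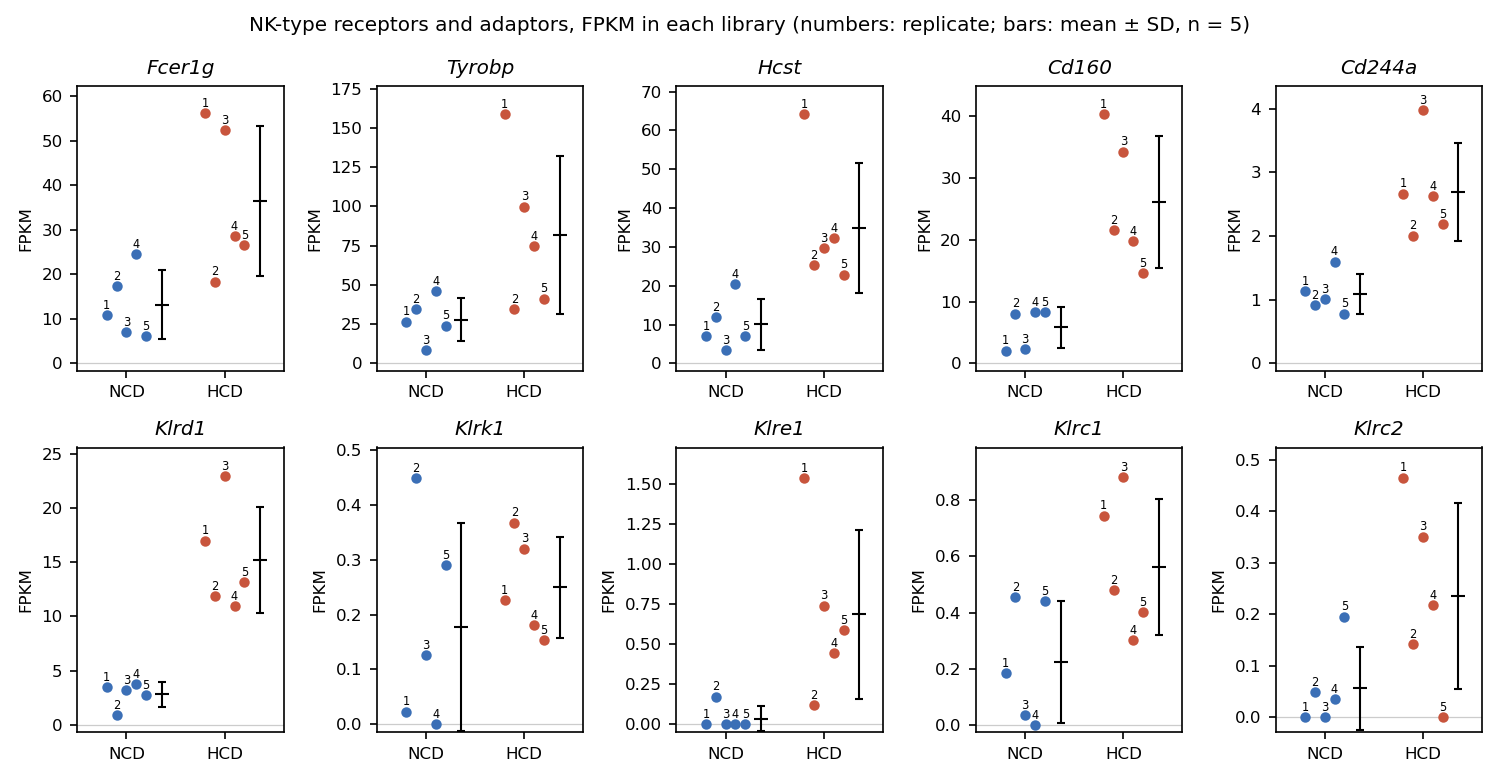
FPKM of the 10 genes in each library (vertical axes in FPKM, scaled per gene; points are libraries numbered by replicate, bars are mean ± SD of 5 libraries). The HCD libraries lie above all NCD libraries for Klrd1, Cd160, Cd244a and Hcst, while Klrk1, Klre1, Klrc1 and Klrc2 stay near or below 1 FPKM.

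The 3 adaptors had the highest mean FPKM of the 10 genes in both groups, although Cd160 exceeded Fcer1g in 2 of the 10 libraries and Hcst in 2. Tyrobp was at 26.6, 34.8, 8.30, 46.0 and 24.1 FPKM in NCD replicates 1 to 5 and at 159, 34.5, 99.9, 74.8 and 41.3 FPKM in HCD replicates 1 to 5. The groups overlapped, since HCD replicates 2 and 5 lay below NCD replicate 4, and HCD replicate 1 stood highest. The means were 28.0 ± 13.9 and 81.8 ± 50.4 FPKM (SD, n = 5), 2.93-fold higher in HCD (log2 difference 1.48 ± 0.44 SE, limma adjusted p = 0.0235). Tyrobp did not pass without NCD replicate 3 (log2 difference 1.12, adjusted p = 0.0534), without HCD replicate 1 (1.19, adjusted p = 0.0561) or without HCD replicate 3 (1.35, adjusted p = 0.0548).

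Fcer1g (chr1:171229572-171234365, minus strand) was at 10.8, 17.4, 6.95, 24.6 and 6.09 FPKM in NCD and at 56.2, 18.4, 52.4, 28.6 and 26.6 FPKM in HCD. NCD replicate 4 was the highest of its group here too, and only HCD replicate 2 lay below it. The mean went from 13.2 ± 7.80 to 36.4 ± 16.8 FPKM, 2.76-fold (log2 difference 1.45 ± 0.36 SE, limma adjusted p = 0.0110). An exact two-sided permutation test of group labels, whose smallest p is 0.00794, adjusted over all tested genes, gave Fcer1g an adjusted p of 0.0669 and Tyrobp 0.118, and without a filter on low values Tyrobp did not pass in limma (adjusted p = 0.0868).

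Hcst was at 7.11, 12.01, 3.45, 20.5 and 7.13 FPKM in NCD and at 64.2, 25.3, 29.8, 32.2 and 22.9 FPKM in HCD. The groups did not overlap, which held with HCD above for 4.53% of the genes tested, and HCD replicate 1 was far above the other 4. The mean went from 10.0 ± 6.59 to 34.9 ± 16.8 FPKM, 3.47-fold (log2 difference 1.80 ± 0.36 SE, limma adjusted p = 0.00356). Without HCD replicate 1 the difference was 1.56 (adjusted p = 0.00849).

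Among the lectin receptors Klrd1, the common partner chain CD94, was the one with a level well above 1 FPKM. Klrd1 (chr6:129591782-129598775, plus strand) was at 3.52, 0.893, 3.21, 3.73 and 2.74 FPKM in NCD and at 17.0, 11.9, 22.9, 10.95 and 13.1 FPKM in HCD. The groups were well apart, with the lowest HCD library at 10.95 FPKM and the highest NCD library at 3.73 FPKM. Its mean rose 5.38-fold, from 2.82 ± 1.14 to 15.2 ± 4.90 FPKM, the largest ratio of the 6 tested genes (log2 difference 2.10 ± 0.27 SE, limma adjusted p = 1.93e-04). Leaving out each library in turn kept the difference between 1.87 and 2.20, with an adjusted p of at most 8.20e-04.

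The partner chains of Klrd1 were far below it. Klrc1 (NKG2A) was at 0.185, 0.455, 0.0355, 0 and 0.441 FPKM in NCD and at 0.746, 0.481, 0.882, 0.301 and 0.401 FPKM in HCD, where 3 of 5 libraries lay above all of NCD. Klrc2 (NKG2C) was at 0, 0.0477, 0, 0.0352 and 0.195 FPKM in NCD and at 0.466, 0.141, 0.351, 0.218 and 0 FPKM in HCD. The groups overlapped for both genes, and both were listed at 0 in some libraries. The Klrc genes are close copies: 36.5% of the stretches of 50 bases in coding transcripts of Klrc1 also occur in Klrc2, so the division of fragments between them is uncertain. Klrc3 was listed at 0 in all 10 libraries.

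Klre1, which encodes a lectin receptor that pairs with Klri chains in mice, was listed at 0 in 4 NCD libraries and at 0.173 FPKM in NCD replicate 2. In HCD it was at 1.54, 0.120, 0.740, 0.442 and 0.587 FPKM, above 0 in all 5 and above the highest NCD library in 4 of them. In a fit without a filter on low values, where 3.92% of 18440 genes were higher, Klre1 was higher in HCD by a log2 difference of 0.65 (limma adjusted p = 0.0417), while Klrc1 (0.36, adjusted p = 0.137), Klrc2 (0.22, adjusted p = 0.193) and Klrk1 (0.10, adjusted p = 0.593) did not pass. These low genes had their log2 differences compressed by the added 1 FPKM: with 0.1 FPKM added they were 2.40 for Klre1, 1.28 for Klrc1, 1.01 for Klrc2 and 0.59 for Klrk1, given without a test. Klrk1 (NKG2D) was at 0.0229, 0.450, 0.126, 0 and 0.290 FPKM in NCD and at 0.226, 0.368, 0.320, 0.180 and 0.153 FPKM in HCD. The highest Klrk1 value of the 10 was that of NCD replicate 2, and no HCD library exceeded it. The adaptor of Klrk1, Hcst, was thus at 22.9 to 64.2 FPKM in HCD while Klrk1 itself stayed under 0.5 FPKM in every library.

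Both receptors of the immunoglobulin type rose. Cd160, a membrane-anchored receptor of intraepithelial lymphocytes and NK cells that binds the herpesvirus entry mediator, was at 2.09, 8.05, 2.34, 8.33 and 8.35 FPKM in NCD and at 40.3, 21.5, 34.3, 19.8 and 14.6 FPKM in HCD. The groups did not overlap, and NCD fell into a pair near 2 FPKM and 3 libraries near 8 FPKM. Its mean rose 4.48-fold, from 5.83 ± 3.31 to 26.1 ± 10.7 FPKM (log2 difference 2.07 ± 0.36 SE, limma adjusted p = 0.00161). Cd160 (chr3:96798763-96829351, minus strand) overlaps Pdzk1, an epithelial scaffold gene on the other strand, in 68 of its 2642 annotated exon bases. Pdzk1, chosen for this overlap, rose from 33.1 ± 11.1 to 65.1 ± 14.9 FPKM (log2 difference 0.99, limma adjusted p = 0.00571). The strand setting of the counting is not given in the sources used here, and the part of Pdzk1 in the Cd160 values was not tested.

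Cd244a (2B4), a receptor of the SLAM family that binds Cd48, lies at chr1:171559193-171609746 on the plus strand and was at 1.13, 0.919, 1.01, 1.597 and 0.781 FPKM in NCD and at 2.67, 2.01, 3.98, 2.63 and 2.19 FPKM in HCD. The groups did not overlap, at a level just over the minimum for testing. The mean went from 1.09 ± 0.312 to 2.69 ± 0.770 FPKM, 2.48-fold (log2 difference 0.81 ± 0.19 SE, limma adjusted p = 0.00818). With a pseudocount of 0.1 in place of 1 the log2 difference was 1.23, and the adjusted p was 0.00947.

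Ordered by mean FPKM, both groups ran Tyrobp, Fcer1g, Hcst, Cd160, Klrd1 and Cd244a, with the 4 low lectin receptors below them. The ranges of neighbours in this order from Tyrobp down to Klrd1 overlapped in both groups. Within a library, Tyrobp was above Fcer1g in all 10 libraries. Fcer1g was above Hcst in 6 of 10, Hcst above Cd160 in 8 and Cd160 above Klrd1 in 8, and these orders were not tested. Cd244a lay below all Klrd1 values in HCD but overlapped them in NCD, and it stayed above all values of the next gene in both groups. Neighbours among the 4 low receptors overlapped in both groups.

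Across the 10 libraries the adaptors resembled each other more than they resembled Klrd1. Likeness was measured as the root mean square difference between log2(FPKM + 1) profiles, each centred on its own mean, so it includes the difference between the groups, and it was not tested. Tyrobp and Hcst were the closest pair of the 6 tested genes, at 0.40, followed by Fcer1g with Hcst and Fcer1g with Tyrobp, both at 0.43. The most distant pair was Klrd1 and Tyrobp, at 0.90. In NCD replicate 2 Tyrobp was the second highest of its group while Klrd1 was the lowest.

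Nearest profiles were sought among the other tested genes that have an Ensembl gene identifier. Those nearest to Klrd1 were the profiles of Enpp3, an ectoenzyme, at 0.25, and Nts, the hormone neurotensin, at 0.30. Nearest to Cd160 were Cd8a at 0.26 and Cd3e at 0.29, a T cell coreceptor and a signalling chain of the T cell receptor. Hcst was nearest to Sct, the hormone secretin, at 0.25, and to Hcls1, a cytoskeletal protein of blood cells, at 0.29. Fcer1g was nearest to Ncf1, a subunit of the phagocyte oxidase, and to the chemokine gene Ccl3, both at 0.31. Tyrobp was nearest to Fxyd5 at 0.33 and Cd52 at 0.38. Cd244a was nearest to Gpr146 at 0.16 and Rnf166 at 0.18.

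Further receptors of NK type were mostly not detected at a testable level. Calls of higher stand beside 7.13% higher among all tested genes. Of 23 listed genes 3 were tested, and all 3 rose: Tigit, an inhibitory receptor, from 2.84 ± 0.744 to 9.24 ± 0.905 FPKM, Cd96 from 2.05 ± 1.14 to 7.81 ± 2.89 FPKM, and Klra5, a receptor of the Ly49 family, from 1.55 ± 0.931 to 7.24 ± 3.50 FPKM (limma adjusted p = 1.72e-04, 0.00331 and 0.00308). Ly49 genes are close copies, so the Klra5 value is uncertain. Of the other 20 genes 5, Klrc3, Klra4, Klra6, Klra8 and Klra9, were listed at 0 in every library. Another list held receptors that use Fcer1g or Tyrobp, mostly of myeloid cells, and Pirb, an inhibitory relative that does not need them. Of its 7 tested genes 1 passed: Cd300ld, at 0.715 ± 0.111 and 2.32 ± 0.936 FPKM (limma adjusted p = 0.00936). Cd300ld was under 1 FPKM in every NCD library and entered the test only through its HCD values, which favours a call of higher. The median of these 7 was 0.48. Pirb differed by 0.43 (adjusted p = 0.175) and Fcgr3, an Fc receptor that needs Fcer1g, by 0.48 (adjusted p = 0.177).

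Of the ligands of these receptors 8 were tested, of 16 listed, and 2 rose while 2 fell, beside 7.13% higher and 19.2% lower among all tested genes. A count of 2 lower in 8 is near that background. Cd48, the ligand of Cd244a, rose from 1.46 ± 0.748 to 5.55 ± 2.74 FPKM (log2 difference 1.38, limma adjusted p = 0.00451). Clec2d, bound by an inhibitory Klrb1 receptor in mice, rose from 11.3 ± 3.11 to 29.2 ± 8.56 FPKM (1.30, adjusted p = 0.00127). Nectin2, a ligand of Cd226, and Pvr, a ligand of Cd226, Tigit and Cd96, fell by 0.69 and 0.97 on the log2 scale, to 106 ± 9.33 and 6.07 ± 1.97 FPKM (limma adjusted p = 0.00117 and 0.00350). When mitochondrial genes were dropped before scaling they fell by 0.51 and 0.82 and still passed. The ligands named next were picked once their values were known. H2-T23, whose product Qa-1 is bound by the Klrd1 heterodimers, was at 233 ± 62.0 and 316 ± 32.9 FPKM (0.47, adjusted p = 0.0564) and passed when mitochondrial genes were dropped before scaling (0.65, adjusted p = 0.0216). Tnfrsf14, the ligand of Cd160, was at 10.7 ± 3.27 and 11.1 ± 3.67 FPKM (adjusted p = 0.897). Of the ligands of NKG2D, Raet1d, Raet1e and H60c were listed at 0 in all 10 libraries, and H60b and Ulbp1 had means under 0.5 FPKM in both groups. Raet1a, Raet1b and Raet1c had no row in the deposited values, so nothing can be said of their levels.

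Kinases and effectors downstream of the adaptors rose in part: 11 of 19 tested genes rose, none fell, and their median was 0.92. Among all tested genes 7.13% were higher and 19.2% lower. Zap70, a kinase recruited to ITAMs in T cells and NK cells, rose from 6.51 ± 4.50 to 28.5 ± 5.66 FPKM (log2 difference 2.17, limma adjusted p = 8.16e-04). The kinase Fyn rose from 1.91 ± 1.08 to 7.74 ± 1.03 FPKM (1.66, adjusted p = 4.72e-04). Pik3cd, the leukocyte catalytic subunit of phosphoinositide 3-kinase, rose from 4.86 ± 2.27 to 13.7 ± 0.731 FPKM (1.42, adjusted p = 0.00109). Syk, the other kinase that binds ITAMs, named here with its values known, was at 6.52 ± 1.25 and 7.21 ± 1.87 FPKM (0.11, adjusted p = 0.702). Of 8 tested phosphatases and related inhibitory or SAP-type proteins 4 rose and none fell: Sh2d2a, a T cell adaptor, by 1.58, Inpp5d (SHIP-1), a lipid phosphatase, by 1.02, Ubash3a by 0.83 and Ptpn6 (SHP-1), the phosphatase that NKG2A recruits, by 0.53 (limma adjusted p = 0.00258, 0.00915, 0.00937 and 0.0413). Ptpn6 passed in 4 of the 10 fits that each left out 1 library, with an adjusted p of up to 0.0981. Ubash3a, with means of 0.537 and 1.72 FPKM, reached the minimum for testing only through HCD, which favours a call of higher.

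**Figure D2:**
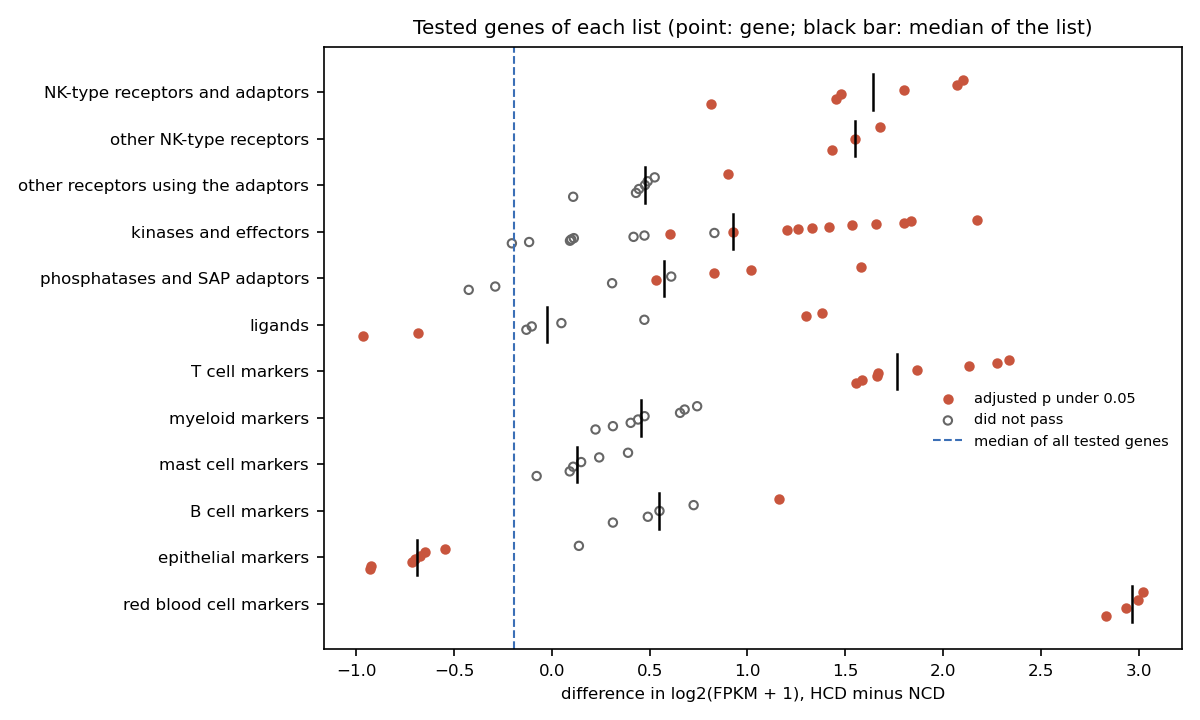
Difference in log2(FPKM + 1), HCD minus NCD, for each tested gene of 12 lists (horizontal axis; points are genes, filled where the limma adjusted p was under 0.05; black bars are list medians; the dashed line is the median of all tested genes at -0.19). The 6 tested NK-type receptors and adaptors lie between 0.81 and 2.10, T cell markers between 1.55 and 2.34, and myeloid markers between 0.22 and 0.74.

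Markers of the cells that carry these receptors were measured in the same libraries, where 7.13% of all tested genes were higher in HCD. All 8 T cell markers rose, by 1.55 to 2.34 on the log2 scale, and their summed level was 39.5 to 107 FPKM in NCD and 271 to 432 FPKM in HCD. Cd3g (2.34) and Cd3e (2.27), chains of the T cell receptor complex, and Cd8a (2.13) had the smallest p. Of 8 markers of NK and innate lymphoid cells only Prf1, perforin, was tested, and it rose from 1.38 ± 0.861 to 5.02 ± 1.33 FPKM (limma adjusted p = 0.00194). The other 7 were not tested. Their mean FPKM in NCD and HCD was 0.113 and 0.694 for Ncr1, 0.0252 and 0.0451 for Eomes, 0.0207 and 0.0508 for Klrb1c, 0.332 and 0.762 for Il7r, and 0.0502 and 0.179 for Rora. Itga2 was lower in HCD, at 0.554 and 0.343 FPKM, and Klra8 was listed at 0 in all libraries. The summed level of the 8 was 1.35 to 3.75 FPKM in NCD and 5.81 to 8.55 FPKM in HCD. Most of this sum, which averaged 2.48 and 7.09 FPKM, came from Prf1 alone.

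Of 12 listed macrophage, monocyte and neutrophil markers 8 were tested and 0 passed in limma, 0 had an unadjusted p under 0.05 and 0 passed the exact permutation test. Their median was 0.46, and 1 marker passed without NCD replicate 2 and 1 without NCD replicate 4; Cd68 and Lyz2 each passed in 1 of the 10 fits that left out 1 library. Their summed level was 19.96 to 71.6 FPKM in NCD and 37.5 to 83.95 FPKM in HCD. Cd68, a macrophage gene, was highest in NCD replicate 4 (6.34 FPKM) and HCD replicate 1 (9.47 FPKM), the libraries in which Tyrobp, Fcer1g and Hcst were also highest within their groups. The T cell genes Cd3e (47.5 and 185 FPKM) and Cd3g (23.5 and 136 FPKM) were highest in the same libraries. Among other myeloid markers, Lyz2 was highest in NCD replicate 2 (34.0 FPKM) and HCD replicate 3 (36.9 FPKM). C1qc was highest in HCD replicate 1 too (9.11 FPKM), but within NCD it was highest in replicate 2 (5.57 FPKM). The part of myeloid cells in the adaptor values was not tested. Of 6 tested mast cell and basophil markers 0 passed in limma, 0 had an unadjusted p under 0.05 and 0 passed the exact permutation test (median 0.13), with sums of 162 to 790 FPKM in NCD and 222 to 507 FPKM in HCD. Fcer1a, the mast cell partner of Fcer1g, named here with its values known, was at 2.89 ± 2.48 and 2.62 ± 1.37 FPKM (adjusted p = 0.875). Of 5 tested B cell markers 1, Jchain, rose (1.16). Epithelial markers were present at summed levels of 11318 to 12167 FPKM in NCD and 6580 to 9085 FPKM in HCD. Of 8 epithelial markers 7 fell, or 6 when mitochondrial genes were dropped before scaling. In the main test 19.2% of all tested genes were lower and 7.13% higher. The 3 markers of all leukocytes, Ptprc, Coro1a and Laptm5, rose by 1.25 to 1.63, and all 4 tested red blood cell genes by 2.83 to 3.02.

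The 6 tested genes were also set against the T cell receptor chains by subtracting, in each library, the mean log2(FPKM + 1) of Cd3d, Cd3e, Cd3g and Cd247. This reference itself was higher by 1.96 in HCD. On the relative scale 0.116% of all tested genes were higher and 96.9% lower in HCD, so that a lower value is the usual one. Subtracting 1 reference gives every gene the same added error. The limma SEs and p-values on this scale therefore rest mostly on spread pooled over genes, not on each gene's own. Klrd1 differed by 0.15 ± 0.43 SE (limma adjusted p = 0.734) and Cd160 by 0.11 ± 0.41 SE (adjusted p = 0.780). Hcst differed by -0.16 ± 0.39 SE (adjusted p = 0.691), Tyrobp by -0.48 ± 0.37 SE (adjusted p = 0.198) and Fcer1g by -0.51 ± 0.39 SE (adjusted p = 0.197). These 5 did not pass, which does not show that they moved exactly with the T cell receptor chains. Cd244a was lower relative to them, by -1.15 ± 0.44 SE (adjusted p = 0.0100), as most tested genes were. Its groups did not overlap, but the share of all genes without overlap on this scale was not counted. This call was lost with a pseudocount of 0.1 (-0.90, adjusted p = 0.137), the setting that compresses low genes less, and against Ptprc, Coro1a and Laptm5 (-0.67, adjusted p = 0.130). It stayed against Cd8a, Cd8b1 and Cd7 (-1.29, limma adjusted p = 0.00805) and in 10 of 10 fits that left out 1 library.

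**Figure D3:**
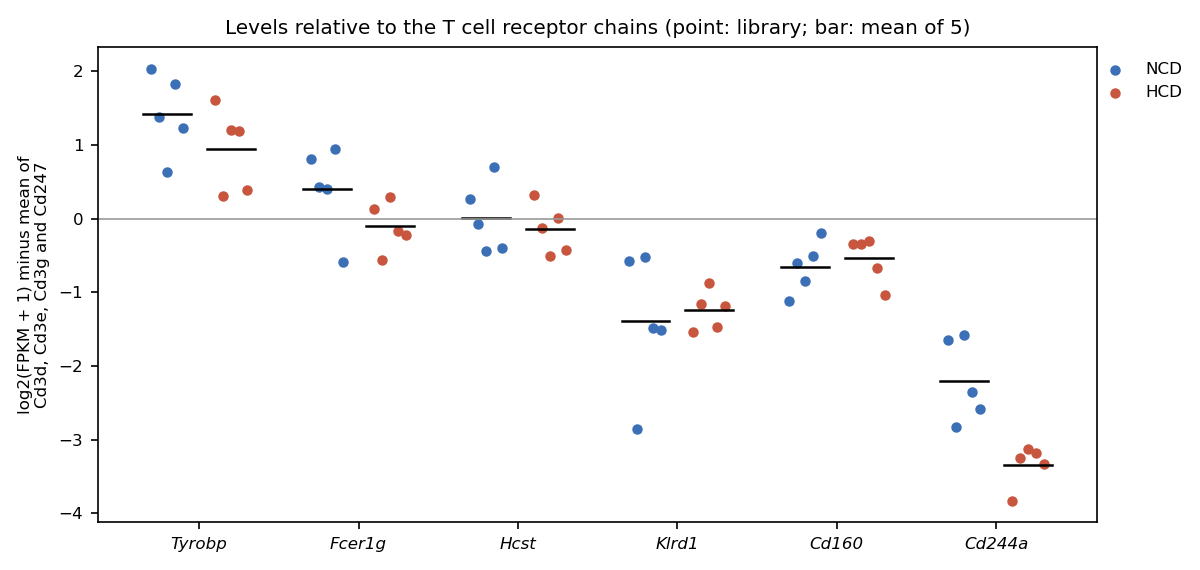
Log2(FPKM + 1) of the 6 tested genes minus the mean of Cd3d, Cd3e, Cd3g and Cd247 in the same library (vertical axis, log2 units; points are libraries, bars are means of 5). The groups overlap for 5 genes, and the HCD libraries lie lower for Cd244a, at a mean of -3.35 against -2.20. On this scale 96.9% of all tested genes were lower.

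The library numbers, whose meaning no label gives, are 1, 2, 3, 9 and 10 in NCD and 11, 12, 13, 19 and 20 in HCD. Each group therefore has a gap between replicates 3 and 4, and the groups were also compared on either side of it. No label names the sides as batches, and the numbers 9 to 13 run on from NCD replicates 4 and 5 to HCD replicates 1 to 3. All 6 log2 differences were above 0 on both sides, and they were larger among replicates 1 to 3. Among replicates 1 to 3, where 4.01% of tested genes were higher, they were 2.82 for Cd160, 2.42 for Klrd1, 2.27 for Hcst, 1.99 for Tyrobp, 1.70 for Fcer1g and 0.91 for Cd244a. Cd244a and Tyrobp did not pass there (limma adjusted p = 0.0502 for both). Among replicates 4 and 5, where 0.436% of tested genes were higher, they were 1.63 for Klrd1, 1.09 for Hcst, 1.08 for Fcer1g, 0.95 for Cd160, 0.72 for Tyrobp and 0.66 for Cd244a, and 0 passed in limma with 2 libraries per group (adjusted p between 0.0540 and 0.388), while 3 had an unadjusted p under 0.05. The difference between these 2 subsets was not tested. HCD libraries all have higher library numbers than NCD libraries, and a difference in handling that goes with the numbers cannot be told apart from the groups.

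**Figure D4:**
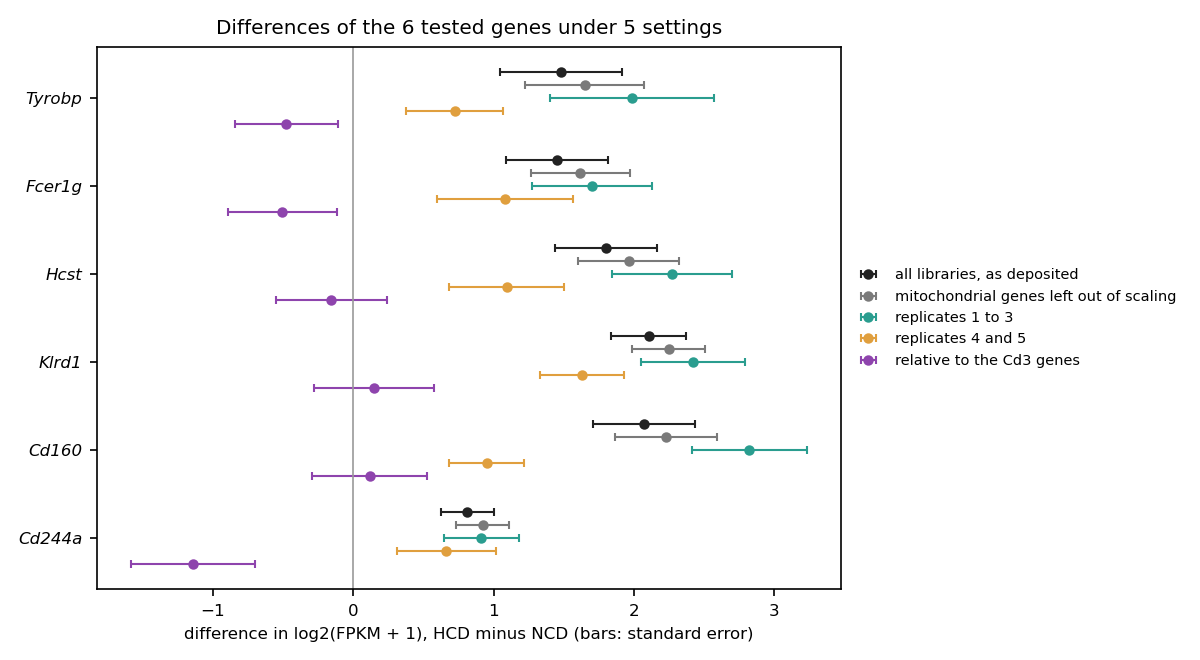
Difference in log2(FPKM + 1), HCD minus NCD, of the 6 tested genes (horizontal axis; bars are standard errors) with all libraries, with mitochondrial genes dropped before scaling, among replicates 1 to 3, among replicates 4 and 5 and relative to the Cd3 genes. Cd160 has the widest gap between the subsets, 2.82 against 0.95, and Klrd1 has the highest value among replicates 4 and 5, 1.63. Standard errors relative to the Cd3 genes rest mostly on spread pooled over genes.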

How the data were processed

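Messenger RNA was measured in 10 libraries. The deposited values are FPKM by the authors; the submitters' processing notes name HISAT2, StringTie, DESeq2, edgeR and GRCm38 without versions. Annotation, strand setting and filters: not given in the sources used here. Each FPKM is a share of its library, so very abundant transcripts lower all others. Whole reads could not be recovered from low values. With the best step size sought in each library, only 26.2% to 46.5% came within 0.1 of a whole number of steps. Chance gives 20% for a step fixed in advance, and more for the best of many steps. Depth is therefore unknown, and counting intervals were not computed.

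Groups follow the titles. Genes averaging 1 FPKM or more were fitted as log2(FPKM + 1) with limma 3.58.1 in R 4.3.3 (eBayes with trend, two-sided, Benjamini-Hochberg over all 10321 tested genes, threshold 0.05). Log2 differences are HCD minus NCD and folds are ratios of mean FPKM. P-values measure the spread between these libraries, which may be technical in part. Those of limma relative to the Cd3 genes rest mostly on spread pooled over genes. Coordinates are from GENCODE M21 on GRCm38. The fit was tested on simulated data. The 10 genes and the lists were chosen with earlier results of these data known. Genes named besides them are the 2 nearest profiles of each tested gene and, per list, up to 3 with the smallest p and those behind counts of 5 or fewer; others are said to be chosen after their values were seen. Alternatives were pseudocount, filter, scaling, quantile normalization, no trend, a replicate block, a term for replicates 1 to 3 against 4 and 5, leaving out each library, an exact permutation test and other references.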

Additional observations from a re-analysis of the deposited data

Results flagged for a closer look

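In groups of 5 libraries, a value was singled out where its gap to the nearest other library exceeded 0.71 of the group's range. Of 116 groups checked over 58 genes 9 had such a value, 7.76%, and chance singles out about 1 in 20. Hcst stood at 64.2 FPKM in HCD replicate 1, against 22.9 to 32.2 in the other HCD libraries. Klre1 stood at 0.173 FPKM in NCD replicate 2, where the others were listed at 0, and Klrc2 at 0.195 FPKM in NCD replicate 5, against at most 0.0477. In HCD replicate 1 the same held for Cd3d (19.2 FPKM) and Cd68 (9.47 FPKM). The remaining values were Cd68 in NCD replicate 4 (6.34 FPKM), Inpp5d (8.60 FPKM) and Mcpt2 (234 FPKM) in NCD replicate 2, and Ubash3a in HCD replicate 5 (2.67 FPKM).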

How the results depend on the processing

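All 6 tested genes stayed higher in HCD under every alternative in which they were tested. All 6 also passed under pseudocounts of 0.1 and 0.5, both other scalings, quantile normalization, no trend and a term for replicates 1 to 3 against 4 and 5. The number that passed was 5 to 6 when 1 library was left out, 5 without a filter on low values, 4 by exact permutation, 4 among replicates 1 to 3 and 0 among replicates 4 and 5. With a minimum of 5 FPKM, Cd244a was not tested. Over all genes, 736 were higher and 1982 lower. The higher genes numbered 433 with a minimum of 5 FPKM, 468 by exact permutation, 414 among replicates 1 to 3 and 45 among replicates 4 and 5. The lower genes numbered 861 when mitochondrial genes were dropped before scaling, 883 after quantile normalization, 1006 among replicates 1 to 3 and 11 among replicates 4 and 5. Leaving out 1 library gave 551 to 787 higher and 1319 to 2036 lower genes. The 2 subsets of replicates hold fewer libraries; for the other settings the cause was not tested. Replicate numbers did not pair the libraries: correlations of same-numbered deviations ran from -0.235 to 0.218. With the replicate block 673 genes were higher and 1620 lower, and the 6 genes still passed.

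Relative to the Cd3 genes, 1 of the 6 genes, Cd244a, was lower, where 96.9% of all tested genes were. The count among the 6 was 0 with a pseudocount of 0.1 and 0 with the reference of Ptprc, Coro1a and Laptm5. The exact permutation test, added after the data had been seen, gave Cd244a an adjusted p of 0.00904. Its unadjusted p was the smallest that test can give, 0.00794. An adjusted p so close to it means that most tested genes reached this floor, so it does not set Cd244a apart. With the replicate block Cd244a passed (adjusted p = 0.0483). Cd160 changed sign to -0.030 against Cd8a, Cd8b1 and Cd7, and Hcst to 0.32 against Ptprc, Coro1a and Laptm5. With 1 library left out Cd160 ranged from -0.0019 to 0.24, Klrd1 from -0.22 to 0.36 and Hcst from -0.27 to 0.013, none of them passing. Low values, as of Klrk1, Klrc1 and Klrc2, which were under 1 FPKM in every library, rest on an unknown number of fragments.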
